A study of Mus musculus with 8 samples.

Results

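Oxidative protein folding was followed through 10 genes, Ero1lb and Ero1l (the Ero1 oxidases), P4hb, Pdia3, Pdia4, Pdia5, Pdia6, Txndc5 and Txndc11 (protein disulfide isomerases and relatives) and Prdx4 (a peroxiredoxin of the endoplasmic reticulum, ER). They were chosen by name out of 24421 genes in the count tables, and all 10 were present in every table. The cells came from pancreatic islets of 8-week-old male C57BL/6J mice, in 4 control samples from mice that had no operation and 4 samples taken 2 days after 50% partial pancreatectomy (PPTx), in which the splenic side of the pancreas is removed and the β-cells of the remnant begin to replicate. Each sample pooled islets of 1 to 3 mice, so its replicate error mixes mice, and an unoperated control cannot tell resection apart from anaesthesia and surgery. PPTx islets came from the remnant alone and control islets from a pancreas that kept its splenic side. A PPTx difference therefore cannot be told apart from a difference between regions of the pancreas. The study's methods name a ddSEQ library kit, whereas the labels name a Chromium kit beside a ddSEQ isolator, and which kit was used was not settled.

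Proinsulin reaches its shape only once disulfide bonds join its chains, and these bonds are made in the ER. A protein disulfide isomerase hands an oxidized cysteine pair to the client, or reshuffles wrong pairs, and an Ero1 oxidase then re-oxidizes the isomerase and passes the electrons to oxygen, which yields hydrogen peroxide. Prdx4 removes that peroxide and can itself oxidize isomerases. Ero1lb is known as the pancreatic Ero1 and takes part in insulin folding, while several isomerases are targets of the unfolded protein response, the programme that ER stress switches on.

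Of 1240 deposited cells, 1232 were kept (520 control, 712 PPTx), with 227439 to 1580152 unique molecular identifiers (UMIs) per sample and sample medians of 3328 to 8677 UMIs per cell, and 1 barcode was shared between samples. Cells were classed by the hormone that led their transcripts, which gave 939 β-cells (Ins1 and Ins2), 114 α-cells (Gcg), 127 PP cells (Ppy), 13 δ-cells (Sst) and 39 cells with no single clear leader, which entered no comparison. All 9 β-cell markers were detected in the β class, 7 in α-, 7 in δ- and 8 in PP cells (Mafa at 0 in all 3, Pdx1 in α- and δ-cells), with summed levels of 637791, 9802, 33958 and 14088 CPM. All 7 α-cell markers were detected in α-, β- and PP cells, at 478115, 2418 and 8529 CPM, so the classes differ in marker levels more than in which markers were seen. The α-, δ- and PP cells together are called other endocrine cells. Levels are CPM, a gene's UMIs scaled to all UMIs of the summed cells, and they are compared between cells and not between genes.

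All 10 genes were matched to RefSeq on GRCm38.p6, the assembly to which the mm10 counts belong, where Ero1lb is listed as Ero1b (chromosome 13, 12565818 to 12609533) and Ero1l as Ero1a (chromosome 14, 45283087 to 45318572). The promoters (250 bases before to 50 after an annotated start) were searched on both strands for the ER stress elements ERSE (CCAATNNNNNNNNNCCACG) and ERSE-II (ATTGGNCCACG), the unfolded protein response element UPRE (TGACGTGG) and the amino acid response element CARE (TGATGNAA). ERSE was found in 0.119% of all 32851 promoters and, among the members, in those of Pdia6 and Ero1lb. UPRE was found in 0.676% of all promoters and in 1 of 2 promoters of Txndc11 and 1 of 3 of Txndc5. No member held ERSE-II (0.0365% of promoters), and CARE (3.97%) was found in another Txndc5 promoter. For comparison, ERSE was in 5 of the 8 ER chaperone genes with a promoter in the table, Hspa5, Hsp90b1, Calr, Canx and Dnajc3, and in 1 of 22 other ER redox genes, Creld2. ERSE-II was in the chaperone gene Dnajb11. No 2 matches overlapped, and a match is a run of letters, not a shown binding site.

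The promoters of the members with ERSE or UPRE are given 5′ to 3′ on the strand of the gene, with the match in capitals. A link between these matches and the levels below was not tested. The ERSE of Pdia6 (chr12:17266339-17266638, plus strand) begins at position −98 from the start, and that of Ero1lb (chr13:12565633-12565932, plus strand) is read on the opposite strand from −201. The UPRE begins at −102 in Txndc11 (chr16:11134483-11134782, minus strand) and at −138 in Txndc5 (chr13:38527865-38528164, minus strand).
Pdia6: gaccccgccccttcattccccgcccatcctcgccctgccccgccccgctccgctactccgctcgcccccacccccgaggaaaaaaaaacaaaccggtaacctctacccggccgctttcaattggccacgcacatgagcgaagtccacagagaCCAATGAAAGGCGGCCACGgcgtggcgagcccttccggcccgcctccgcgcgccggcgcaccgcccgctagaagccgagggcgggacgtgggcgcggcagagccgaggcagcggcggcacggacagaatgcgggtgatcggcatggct
Ero1lb: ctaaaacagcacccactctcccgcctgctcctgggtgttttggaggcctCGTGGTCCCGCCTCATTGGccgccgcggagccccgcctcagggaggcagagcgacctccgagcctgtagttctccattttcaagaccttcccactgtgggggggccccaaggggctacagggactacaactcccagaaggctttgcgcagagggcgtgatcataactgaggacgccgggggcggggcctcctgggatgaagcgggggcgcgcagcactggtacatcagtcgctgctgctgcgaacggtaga
Txndc11: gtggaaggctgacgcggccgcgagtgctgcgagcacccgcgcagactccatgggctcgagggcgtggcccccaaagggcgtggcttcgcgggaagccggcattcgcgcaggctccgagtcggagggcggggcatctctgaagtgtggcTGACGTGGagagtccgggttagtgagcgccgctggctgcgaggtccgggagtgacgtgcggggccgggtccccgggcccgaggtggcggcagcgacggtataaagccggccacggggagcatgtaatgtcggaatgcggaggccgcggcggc
Txndc5: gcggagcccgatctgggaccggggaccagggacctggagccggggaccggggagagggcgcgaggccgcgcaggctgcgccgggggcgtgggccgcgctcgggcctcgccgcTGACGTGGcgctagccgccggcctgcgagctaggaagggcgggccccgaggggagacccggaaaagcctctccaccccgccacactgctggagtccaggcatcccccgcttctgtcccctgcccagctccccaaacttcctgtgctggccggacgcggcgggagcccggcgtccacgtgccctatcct

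Across cell types, Ero1lb was the member that differed most between β-cells and the other endocrine cells, Pdia6 and P4hb were also higher in β-cells, and Prdx4 was the reverse, higher in the other cells in every sample. Sums of β-cells and of other endocrine cells of the same 8 samples entered an edgeR quasi-likelihood fit that kept each sample as its own block. At an adjusted p (Benjamini-Hochberg over all 2497 genes tested) of 0.05, 4 of 7 tested members were higher in β-cells, where 21.6% of all genes were, and 1 was lower, where 21.9% of all genes were. The median log2 fold change of the 7 members was 0.74, against −0.01 over all tested genes.

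Ero1lb stood at 729, 940.3, 913 and 1054 CPM in β-cells of control replicates 1 to 4 and at 904, 1604, 991 and 842 CPM in those of PPTx replicates 1 to 4. In the other endocrine cells of the same samples it stood at 74.5, 102, 89.4 and 82.9 CPM and at 77.9, 147, 62.4 and 77.0 CPM. The lowest β-cell sum lay far above the highest sum of other cells, and PPTx replicate 2 was the highest sample in both. The difference was 12.4-fold (log2 3.64, SE 0.14, edgeR adjusted p = 1.28e-25).

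Against single classes Ero1lb was 10.1-fold higher in β-cells than in α-cells (log2 3.34, SE 0.20, adjusted p = 4.82e-23) and 14.9-fold higher than in PP cells (log2 3.89, SE 0.19, adjusted p = 4.75e-28). In the 13 δ-cells, too few for a test, 2 UMIs gave 48.5 CPM with an exact Poisson 95% interval of 5.87 to 175, against 1069 CPM (1044 to 1095) in β-cells, and both intervals cover counting error only. After each cell was thinned to 2000 UMIs, 81.5% of β-cells had an Ero1lb UMI, as had 24.6% of α-cells and 14.2% of PP cells, from median depths of 6097, 3962.5 and 5240 UMIs before thinning.

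Insulin transcripts, which free RNA can carry into other droplets, give a yardstick for these low levels. At 2000 UMIs a cell, Ins1 had a UMI in 83.3% of α-cells and 83.5% of PP cells, so a share of cells alone does not tell expression from background. The CPM in other endocrine cells over that in β-cells of the same sample had a median of 0.0136 for Ins1 and 0.0120 for Ins2 over 8 samples, against 0.0915 for Ero1lb (0.0629 to 0.108). The ratio of Ero1lb exceeded those of Ins1 and Ins2 in 8 of 8 samples, and that of the β-cell peptide Iapp in 4 of 8. Pooled over cells, Iapp was at 21499 CPM in δ-cells, 4378 in PP cells and 1057 in α-cells, against 48968 in β-cells. Its ratio therefore cannot be read as free β-cell RNA alone.

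**Figure D1:**
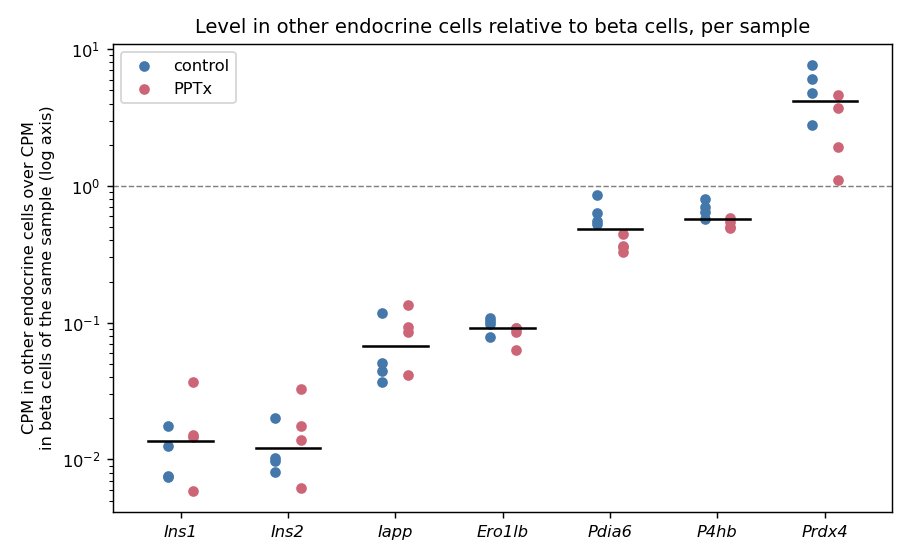
CPM in other endocrine cells divided by CPM in β-cells of the same sample (log axis), for 3 β-cell peptides and 4 members; points are the 8 samples coloured by group and bars are medians. Ero1lb lies between 0.0629 and 0.108, above both insulin genes, and Prdx4 lies above 1 in every sample.

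The 5 genes whose levels followed Ero1lb most closely over the 21 sums of samples and classes, by Pearson's r of log2(CPM + 10) among 1719 genes with a mean of at least 50 CPM, were Insrr (0.94), Sytl4 (0.92), Ucn3 (0.92), Tmem215 (0.91) and Slc2a2 (0.91). The sums share libraries and 3 classes set most of the spread, so these values are a description. Ucn3 and Slc2a2 are known markers of mature β-cells. Within β-cells of a sample, thinned to equal depth, Ero1lb and the sum of the other members had Spearman's rho between −0.15 and 0.24 (median 0.06, 8 samples), a weak relation in sparse counts.

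Ero1l, the oxidase that most tissues use, gave few UMIs and was not tested by edgeR, because its counts fell under the filter. It averaged 15.7 ± 5.92 CPM in β-cells and 7.47 ± 6.11 CPM in other endocrine cells (SD, n = 8), and was higher in β-cells in 6 of 8 samples (two-sided p = 0.0781 over all sign flips of the samples, an exact test). The exact p was 0.0312 without control replicate 2 and 0.0391 with hormone transcripts left out of the totals, but 0.266 in thinned cells, 0.141 with the looser class, 0.0547 with the stricter class and 0.0625 to 0.156 without any other single sample. Against PP cells it averaged 15.8 and 4.68 CPM, higher in β-cells in 6 of 7 samples (exact sign flips, p = 0.0469, and 0.0312 to 0.0938 as single samples were left out). The exact p over PP cells was 0.297 in thinned cells, 0.0625 with the stricter class, 0.0781 with the looser class and 0.0469 without hormone transcripts. Against α-cells Ero1l averaged 14.3 and 11.7 CPM, higher in 3 of 6 samples (exact sign flips, p = 0.656). These values rest on 103 UMIs in all β-cells and 11 in all other cells.

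Pdia6, an isomerase that binds the chaperone Hspa5, was at 404.5 to 939 CPM in β-cells and at 233 to 409.8 CPM in other endocrine cells of the 8 samples, lower in the other cells in 8 of 8. It was 2.41-fold higher in β-cells (log2 1.27, SE 0.12, adjusted p = 2.49e-12), with a median ratio of other over β-cells of 0.599 in control and 0.360 in PPTx samples. P4hb, the classical protein disulfide isomerase, which is also a subunit of prolyl 4-hydroxylase, ranged from 509.7 to 893 CPM in β-cells and from 337 to 518 CPM in the others. It was higher in β-cells within 8 of 8 samples, by 1.88-fold (log2 0.91, SE 0.11, adjusted p = 1.31e-09).

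Both held against α-cells alone and against PP cells alone. Pdia6 was higher in β-cells than in α-cells by a log2 of 1.66 (SE 0.18, adjusted p = 8.05e-12) and than in PP cells by 1.14 (SE 0.15, adjusted p = 1.34e-09). P4hb differed by 1.08 (SE 0.16, adjusted p = 2.35e-08) and 0.79 (SE 0.13, adjusted p = 7.58e-07). With Ero1lb, these were the 3 of 6 tested members higher in β-cells in each fit, where 24.1% of 1378 genes were higher and 23.4% lower against α-cells and 23.2% higher and 24.6% lower against PP cells. With no count filter the balance over all genes shifted from 332 higher and 322 lower to 1058 and 340 against α-cells, and from 320 and 339 to 1144 and 371 against PP cells.

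Pdia4, an isomerase induced by ER stress, averaged 58.9 ± 28.3 CPM in β-cells and 38.7 ± 22.9 CPM in other endocrine cells (SD, n = 8), overlapping between the classes. It was higher in β-cells by a log2 of 0.74 (SE 0.24, adjusted p = 0.0110), a call that was lost without PPTx replicate 2 (log2 0.54, adjusted p = 0.0888). Pdia3, which works with calnexin and calreticulin on glycoproteins, averaged 109.8 ± 33.4 and 96.8 ± 36.9 CPM (SD, n = 8; log2 0.33, SE 0.16, adjusted p = 0.108). It was called in 2 of 16 alternatives, without control replicate 2 (log2 0.44, adjusted p = 0.0319) and with no count filter (log2 0.53, adjusted p = 0.0495), and its sign changed in thinned cells (log2 −0.09, adjusted p = 0.775). Against the single classes it was at 0.49 over α-cells (SE 0.25, adjusted p = 0.106, called in 4 of 14 alternatives with adjusted p from 0.0374 to 0.416) and 0.29 over PP cells (SE 0.20, adjusted p = 0.248).

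Txndc5, an isomerase with thioredoxin domains, was at 97.5 ± 12.3 CPM in β-cells and 108 ± 48.6 CPM in the others (SD, n = 8), and no difference was called (log2 0.17, SE 0.18, adjusted p = 0.469). The mean CPM was thus higher in the other cells, with a median ratio of other over β-cells of 1.11, while the fitted log2 was above 0. Its values against the single classes were a log2 of 0.64 for β- over α-cells (SE 0.28, adjusted p = 0.0517, called in 8 of 14 alternatives with adjusted p from 0.0177 to 0.175) and 0.03 for β- over PP cells (SE 0.21, adjusted p = 0.932). Pdia5 and Txndc11 were under the filter. Pdia5 averaged 31.9 and 18.4 CPM, higher in β-cells in 6 of 8 samples (exact sign flips, p = 0.0312), with an exact p of 0.0625 without any one of 6 of the samples and 0.203 with a looser hormone class. Txndc11, a large thioredoxin-like protein of the ER membrane, averaged 35.5 and 36.4 CPM and was higher in β-cells in 5 of 8 samples (exact sign flips, p = 0.938). Against single classes Pdia4, Pdia5 and Txndc11 were all under the filter, with exact sign-flip p between 0.156 and 0.938 for α-cells and between 0.109 and 0.578 for PP cells.

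Prdx4 went the other way. In β-cells it stood at 30.6, 16.9, 23.6 and 16.2 CPM in control replicates 1 to 4 and at 34.7, 47.3, 26.0 and 34.8 CPM in PPTx replicates 1 to 4. In the other endocrine cells it stood at 186, 129, 66.2 and 77.7 CPM and at 129.9, 220.3, 49.9 and 38.5 CPM. Within each of the 8 samples the other cells were higher, by a ratio of 1.11 to 7.63 (median 4.20), although the ranges over samples overlapped.

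Prdx4 was lower in β-cells by a log2 of −1.77 (SE 0.21, adjusted p = 3.13e-09), a 3.40-fold difference that rests on 188 UMIs in β-cells and 141 in the others. It was lower in β-cells against α-cells (log2 −1.42, SE 0.36, adjusted p = 0.000852) and against PP cells (log2 −1.87, SE 0.28, adjusted p = 3.90e-08). Of 4 tested peroxiredoxins of the cytosol and mitochondria, 1 was higher and 1 lower in β-cells, beside 21.6% and 21.9% of all genes. Prdx6 was higher (log2 0.73, SE 0.16, adjusted p = 0.000143) and Prdx1 lower (log2 −0.45, SE 0.14, adjusted p = 0.0105). Prdx1 was lower against PP cells (log2 −0.71, SE 0.16, edgeR adjusted p = 0.000145) and not called against α-cells (log2 0.05, SE 0.20, edgeR adjusted p = 0.871). Prdx6 was higher against both (log2 0.93 over α-cells and 0.68 over PP cells).

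**Figure D2:**
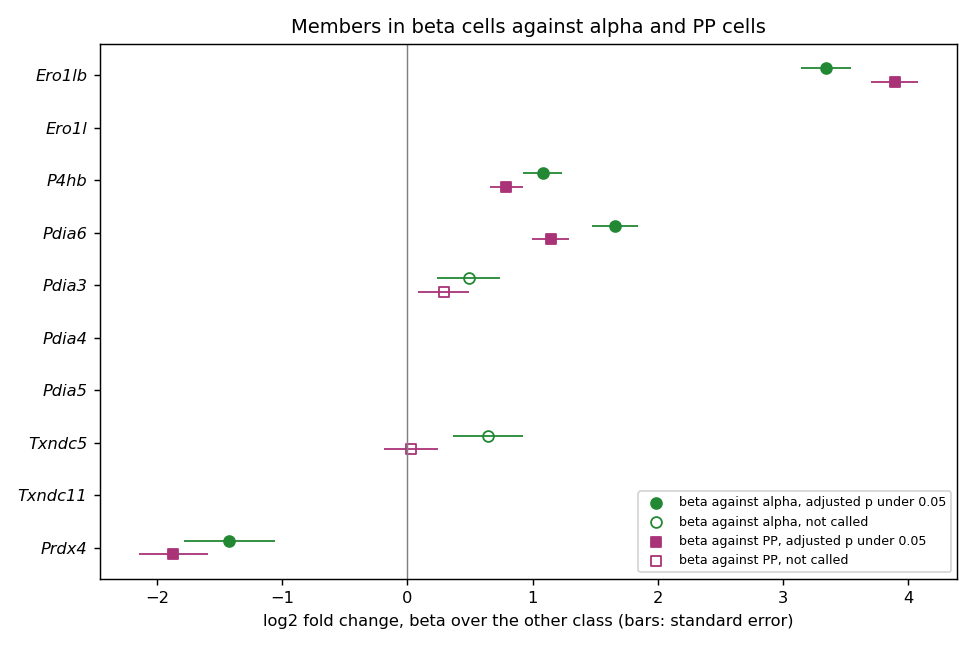
Log2 fold changes of β-cells over α-cells (circles) and over PP cells (squares) from edgeR fits, with bars for the standard error; filled symbols passed an adjusted p of 0.05 and members without a symbol were under the count filter. Ero1lb lies at 3.34 and 3.89, Pdia6 and P4hb lie to the right of 0, and Prdx4 lies to the left.

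Between α- and PP cells, a comparison added once the classes had been counted, no member was called by edgeR, where 8.49% of the 1378 genes were called in either direction. Of the 6 members tested, 1 had an unadjusted p under 0.05, against 21.5% of all genes, and DESeq2 called 0 as well. Ero1lb differed by a log2 of 0.55 (SE 0.30, adjusted p = 0.433) and Pdia6 by −0.51 (SE 0.22, adjusted p = 0.147), α over PP. Txndc5 was at −0.61, Prdx4 at −0.45, P4hb at −0.29 and Pdia3 at −0.20, with adjusted p between 0.293 and 0.783. As single samples were left out, Txndc5 ranged from −0.77 to −0.36, Prdx4 from −0.69 to −0.10, P4hb from −0.36 to −0.15 and Pdia3 from −0.30 to −0.03. In the same fits Ero1lb ranged from 0.32 to 0.90 and Pdia6 from −0.78 to −0.35, with edgeR adjusted p of at least 0.0564. Exact sign flips of the 4 members under the filter gave p between 0.375 and 0.75.

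The other ER redox proteins and the chaperones were read from lists chosen with earlier results of these data known. Of 26 listed redox proteins of the ER in the tables, 13 were tested between β- and other endocrine cells, with 6 higher and 1 lower in β-cells, beside 21.6% and 21.9% of all genes. Creld2, which acts as a disulfide isomerase, was higher by a log2 of 2.01 (SE 0.19, adjusted p = 4.40e-12), and Erp29 (1.54), Erp44 (1.23), Selm (1.15) and Sep15 (0.58) were among the others that were higher, whereas Tmx4, a transmembrane relative of thioredoxin, was lower (−0.67). Of the 10 ER chaperones 8 were higher, with a median log2 of 1.22, led by Sdf2l1 (2.55) and Dnajb11 (1.91), while Hsp90b1 was not called (0.16, adjusted p = 0.266). Of 4 tested regulators of the unfolded protein response, Atf6 (0.91) and Atf6b (0.79) were higher in β-cells, and none of 3 tested cytosolic thioredoxin and glutathione genes was called.

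PPTx was then compared with control within β-cells. Pdia6 rose after PPTx and was the only member called, while Pdia3, Pdia4, P4hb, Txndc11 and Prdx4 had an unadjusted p under 0.05 and did not pass the adjustment. All 10 members were tested among 5866 genes, of which 0.188% were higher and 0.119% lower after PPTx. Fold changes were above 0 for 9 of 10 members, with a median log2 of 0.43 against −0.01 over all genes, and 6 of 10 had an unadjusted p under 0.05, against 9.32% of all genes. Members share samples, so these counts describe the list and do not test it.

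Pdia6 was at 474, 404.5, 509.9 and 441 CPM in β-cells of control replicates 1 to 4 and at 784, 939, 756 and 688 CPM in those of PPTx replicates 1 to 4. Every PPTx sample was above every control sample. The rise was 1.61-fold (log2 0.68, SE 0.15, edgeR adjusted p = 0.0376), and DESeq2 gave a log2 of 0.68 (adjusted p = 0.00114). The edgeR call was lost without control replicate 1, 2 or 4 or PPTx replicate 1, 2 or 3, with log2 values between 0.64 and 0.72 and adjusted p between 0.0533 and 0.193.

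The groups were also apart for P4hb, Pdia4 and Txndc11, which with Pdia6 makes 4 of 10 members for which every PPTx sample lay above every control sample, against 4.99% of all tested genes, and 3 of 10, against 2.7% of genes, when hormone transcripts were left out of the totals, Pdia4 then overlapping. P4hb was at 509.7, 557, 642 and 590.0 CPM in control and at 799, 893, 889 and 728 CPM in PPTx samples (log2 0.41, SE 0.15, adjusted p = 0.327). Pdia4 was at 15.3, 31.8, 58.3 and 49.6 CPM in control and at 66.9, 81.8, 106.9 and 60.4 CPM in PPTx samples (log2 0.70, SE 0.24, adjusted p = 0.305). Txndc11 was at 5.10, 29.6, 29.2 and 20.8 CPM in control and at 52.7, 57.0, 43.6 and 45.8 CPM in PPTx samples (log2 0.90, SE 0.26, adjusted p = 0.171), from 70 UMIs in all control and 179 UMIs in all PPTx β-cells.

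Pdia3 averaged 87.3 ± 15.6 CPM in control and 132 ± 31.7 CPM in PPTx β-cells (SD, n = 4 samples each; log2 0.44, SE 0.19, adjusted p = 0.489), and Prdx4 averaged 21.8 ± 6.73 and 35.7 ± 8.80 CPM (log2 0.66, SE 0.27, adjusted p = 0.434). Both overlapped between the groups. The oxidases did not pass either: Ero1lb averaged 909 ± 135 and 1085 ± 351 CPM (log2 0.12, SE 0.17, adjusted p = 0.879) and Ero1l 12.4 ± 6.24 and 19.1 ± 3.58 CPM (log2 0.36, SE 0.36, adjusted p = 0.820). The value of Ero1l ranged from 0.14 to 1.01 as single samples were left out, the highest without control replicate 3 (adjusted p = 0.462). The mean of Ero1lb in PPTx was raised by replicate 2, at 1604 CPM, and its log2 fold change without that sample was −0.04. Pdia5 (log2 0.25, SE 0.23, adjusted p = 0.795) and Txndc5 (log2 −0.01, SE 0.19, adjusted p = 0.998) were not called, and the sign of Txndc5 changed with the settings.

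**Figure D3:**
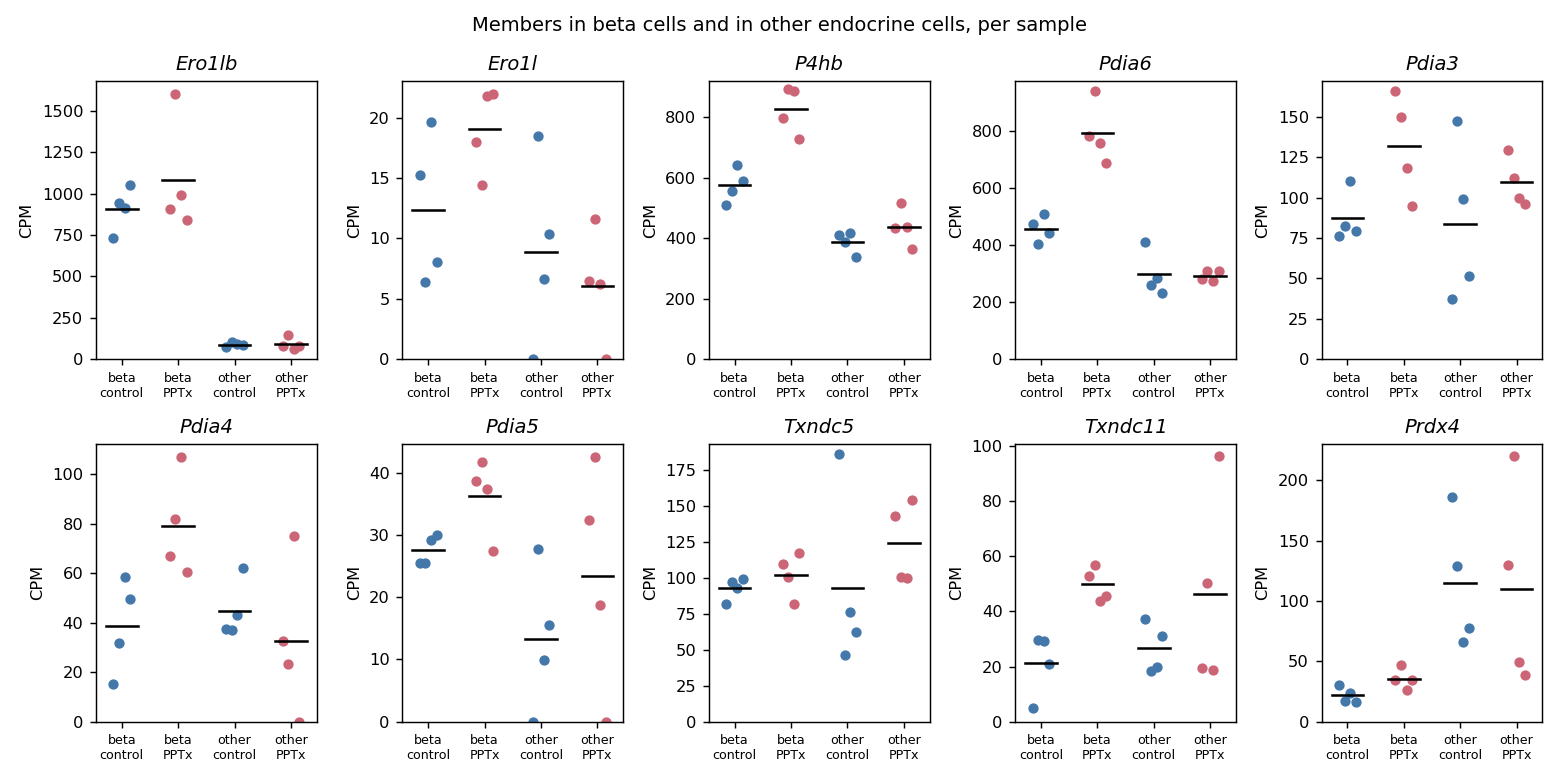
CPM of each member (linear axes from 0) in β-cells and in other endocrine cells of 4 control (blue) and 4 PPTx samples (red); points are samples and bars are means. In β-cells the PPTx points of Pdia6 (688 to 939 CPM) lie above the control points (404.5 to 509.9 CPM), and Ero1lb is high in β-cells of both groups.

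Several measures moved with the groups beside these values. Summed acinar markers in β-cell sums were 4.24 to 45.9 CPM (median 6.04) in control and 6.23 to 124 CPM (median 26.7) in PPTx samples, with 4 of 6 markers detected in control (Cpa1 and Reg1 at 0) and 6 of 6 in PPTx. Summed ductal markers were 2.12 to 20.4 and 10.4 to 131 CPM, with 2 of 4 markers (Sox9 and Cftr at 0) and 3 of 4 (Cftr at 0) detected. Ppy in β-cell sums had a median of 366 CPM in control and 2688 CPM in PPTx samples, beside the larger number of PP cells in the latter. Insulin took 58.5% to 63.1% of the UMIs of β-cells in control and 51.6% to 60.3% in PPTx samples. Their part in the differences was not tested. With insulin and the other hormones left out of the totals, Pdia6 was at a log2 of 0.69 (edgeR adjusted p = 0.0222).

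In β-cells without replication transcripts Pdia6 rose by a log2 of 0.68 (adjusted p = 0.0404). In the listed groups, 1 of 19 tested ER redox proteins rose in β-cells, Creld2 (log2 1.04, SE 0.19, adjusted p = 0.0118), and 1 of 10 ER chaperones, Sdf2l1 (log2 1.06, SE 0.19, adjusted p = 0.00918), beside 0.188% of all genes. The chaperone median was a log2 of 0.49, against −0.01 over all genes, with Hspa5 at 0.65 (SE 0.16, adjusted p = 0.0808). None of 6 tested response regulators, 5 other peroxiredoxins and 6 cytosolic redox genes was called, and Xbp1 was at −0.06 (SE 0.16).

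**Figure D4:**
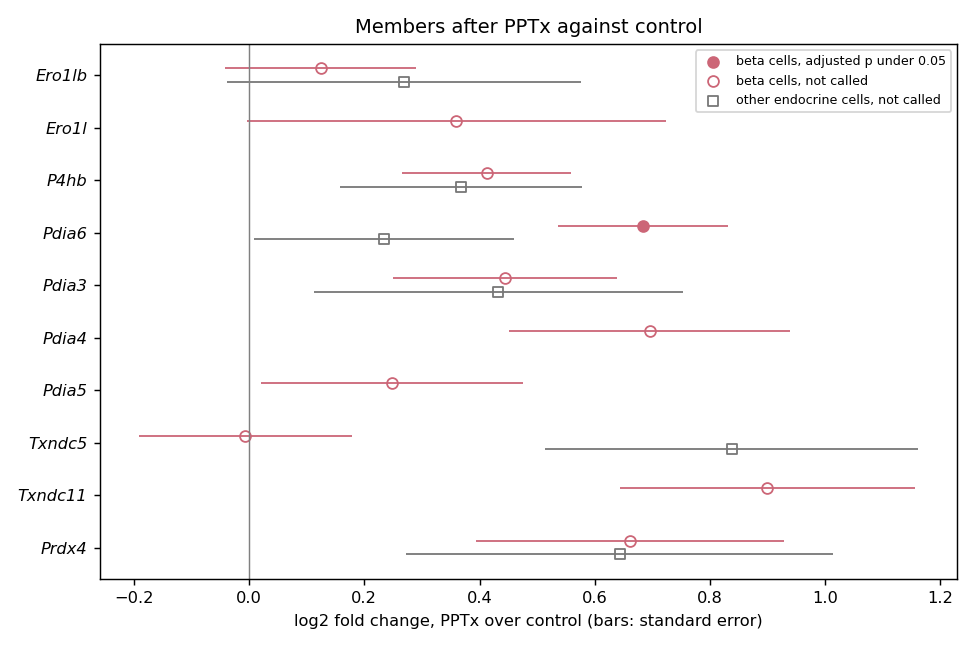
Log2 fold changes of PPTx over control in β-cells (red circles) and in other endocrine cells (grey squares), with bars for the standard error; the filled symbol passed an adjusted p of 0.05. Pdia6 in β-cells, at 0.68, is the only filled symbol, and 9 of 10 members lie to the right of 0 in β-cells.

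In the other endocrine cells no member was called between PPTx and control by edgeR or DESeq2, where 0.929% of 1400 genes were called by edgeR. Of 6 members tested, 1 had an unadjusted p under 0.05, against 9.29% of all genes, Txndc5 (log2 0.84, SE 0.32, adjusted p = 0.364). Pdia6 averaged 297 ± 78.4 CPM in control and 293 ± 18.4 CPM in PPTx samples (SD, n = 4 each; log2 0.23, SE 0.23, adjusted p = 0.788), so that its mean CPM and its fitted log2 differed in direction. P4hb (log2 0.37, SE 0.21, adjusted p = 0.613), Prdx4 (log2 0.64, SE 0.37, adjusted p = 0.617, but 0.04 without PPTx replicate 2 and 0.14 with the replicate block), Pdia3 (log2 0.43, SE 0.32, adjusted p = 0.711) and Ero1lb (log2 0.27, SE 0.31, adjusted p = 0.831) were not called, and the 4 members under the filter had exact permutation p between 0.371 and 0.571. These cells were a different mix in the groups, with α-cells making up 47.8% to 83.9% in control and 5.88% to 25.9% in PPTx samples, and PP cells 12.9% to 39.1% and 66.7% to 94.1%. Summed acinar markers in these cells were 0 to 9.23 CPM (median 1.66) in control, with 2 of 6 markers detected (Cpa1, Pnlip, Ctrb1 and Reg1 at 0), and 24.9 to 173 CPM (median 55.6) in PPTx samples, with 6 of 6 detected. Summed ductal markers were 0 to 181 CPM (median 46.5) and 19.2 to 298 CPM (median 208), with 2 of 4 detected in each group (Krt19 and Cftr at 0 in control, Sox9 and Cftr in PPTx). The part of these markers in the values was not tested. In PP cells alone Pdia6 was at a log2 of −0.08 (adjusted p = 0.983), Prdx4 at 0.19, Pdia3 at 0.08 and P4hb at 0.37.

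Whether PPTx acted differently in β-cells was tested as an interaction, and no member was called by edgeR, where 0.224% of 3568 genes were, nor by DESeq2. Pdia6 differed by a log2 of 0.44 (SE 0.23, adjusted p = 0.622), β minus other, Pdia4 by 0.87 (SE 0.49, adjusted p = 0.666) and Txndc5 by −0.90 (SE 0.34, adjusted p = 0.355), the only 1 of 9 tested members with an unadjusted p under 0.05, against 8.44% of all genes. As single samples were left out, Pdia4 ranged from 0.58 to 1.39 (edgeR adjusted p between 0.485 and 0.947). The other 6 tested members lay between −0.87 and 0.08 (adjusted p of 0.814 or more), and Ero1l, under the filter, had an exact permutation p of 0.257. Each of those 6 tested members changed sign in at least 1 alternative, and no member was called in any alternative run: Pdia3 lay between −0.32 and 0.44, Pdia5 between −1.25 and 0.55, P4hb between −0.091 and 0.062, Ero1lb between −1.32 and 0.027, Txndc11 between −0.29 and 0.49, and Prdx4 between −0.16 and 0.52. The Pdia6 ratio of other over β-cells was at 0.528 to 0.865 in control and 0.329 to 0.447 in PPTx samples. It is given as a description because it was singled out after its values were seen. The share of all genes whose ratios lie apart was not counted, and the other cells were a different mix in the groups. By the test of the interaction, a rise particular to β-cells was not shown.

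The last comparison set β-cells with replication transcripts (at least 2 UMIs of 10 markers, 39 cells in all) against the other β-cells of their samples. In these cells Ero1lb was lower and Prdx4 was higher. The fit held the 6 samples with at least 3 such cells, 2 control and 4 PPTx, with up to 13 cells each, and of 2616 genes 3.63% were higher and 1.64% lower. That balance of 95 higher and 43 lower genes turned to 204 and 361 with no count filter and to 7 and 15 in thinned cells. Of 9 tested members 1 was called in each direction, and the median log2 fold change was −0.21 for the members and −0.11 for all genes.

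Ero1lb was at 501, 605, 637, 1113, 669 and 262 CPM in the replicating cells of control replicates 3 and 4 and PPTx replicates 1 to 4. In the other β-cells of these samples it was at 928, 1066, 924, 1635, 1023 and 854 CPM, higher in each of the 6. The difference was a log2 of −0.94 (SE 0.22, edgeR adjusted p = 0.000997), and it was called in every alternative run. The β-cell maturity genes Ucn3 and G6pc2 were lower in the same fit, Ucn3 with a log2 of −0.75 (SE 0.22, adjusted p = 0.0215) and G6pc2 with one of −1.15 (SE 0.22, adjusted p = 1.22e-05), whereas Ins1 (−0.36, adjusted p = 0.404), Ins2 (−0.39, adjusted p = 0.308) and Slc2a2 (−0.35, adjusted p = 0.535) were not called.

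Prdx4 was at 131, 0, 116, 107, 47.0 and 0 CPM in the replicating cells, in the same order, from 24 UMIs in all, and at 19.6, 16.6, 28.9, 43.5, 23.9 and 35.5 CPM in the other β-cells. It was higher in 4 of 6 samples (log2 1.35, SE 0.41, adjusted p = 0.0257), and the call was lost without control replicate 3 (log2 1.04, adjusted p = 0.256), PPTx replicate 1 (1.21, 0.124) or PPTx replicate 3 (1.41, 0.0524), with the stricter class (1.24, 0.0668) and with no count filter (0.82, 0.285). It was called in 6 of 11 alternatives, and DESeq2 gave it no adjusted p. The isomerases Pdia6 (log2 −0.24, SE 0.22, adjusted p = 0.659) and P4hb (log2 −0.20, SE 0.21, adjusted p = 0.727) were not called, although with no count filter, where the median of all genes was −0.70, Pdia6 was called at −0.80 (adjusted p = 0.0460). Txndc11 was at −0.90 (SE 0.55, adjusted p = 0.432), and at −0.85 to −0.55 in the 4 fits without a single sample that tested it. Txndc5 was at −0.28, Pdia4 at −0.21 (−0.40 to −0.0025 as single samples were left out), Pdia3 at −0.19 and Pdia5 at 0.05. None of these genes was called, and Ero1l, under the filter, averaged 14.3 and 17.4 CPM (exact sign flips, p = 0.656). Among the 10 chaperones 1 was lower, Dnajb9 (log2 −0.71, SE 0.23, adjusted p = 0.0452), and the median was −0.50. Among 14 tested other ER redox proteins 1 was lower, Selm (log2 −0.78, SE 0.24, adjusted p = 0.0306), and the median was −0.05. Over all genes 1.64% were lower and the median was −0.11.

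**Figure D5:**
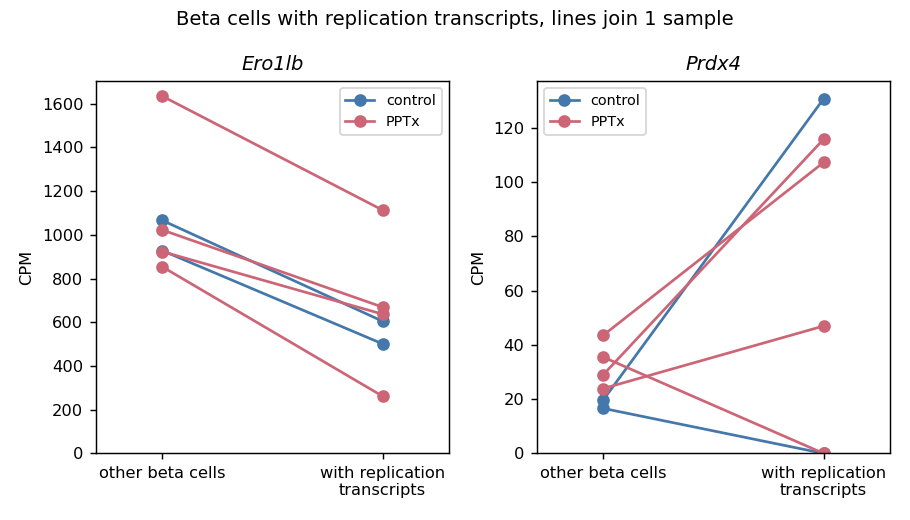
CPM of Ero1lb (left) and Prdx4 (right) in β-cells with replication transcripts and in the other β-cells, on linear axes from 0; each line joins the 2 sums of 1 sample, blue for control and red for PPTx. All 6 lines of Ero1lb fall, and 4 of 6 lines of Prdx4 rise.

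In single β-cells thinned to 2000 UMIs, the members together gave a sample mean of 3.81 to 7.58 UMIs per cell, so single genes are near their floor in a cell. The summed members and the summed ER chaperones had a Spearman's rho of 0.18 to 0.30 within samples (median 0.23, 8 samples), or of 0.063 to 0.38 (median 0.24) as shares of a cell's UMIs without hormones, and Pdia6 and P4hb one of −0.12 to 0.18. Cells of a sample share its library and the thinned totals tie genes to each other, so these values are a description.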

How the data were processed

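Islet cells of 4 control and 4 PPTx samples were profiled in droplets. The authors aligned reads to mm10 and counted UMIs with Cell Ranger 2.1.0 (bcl2fastq 2.20.0.422), and the deposited tables give these raw counts as whole numbers, 1 row a gene symbol or cell. Cell Ranger also filtered and debarcoded the reads, and the threshold that called a barcode a cell is not given in the sources used here. No kept cell had fewer than 2005 UMIs. Depth was 236645 to 1580152 UMIs per sample before any filter, so counts of low genes are limited by counting error.

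The study's filter was applied (100 to 3000 genes, 100 to 20000 UMIs in a cell). A cell took the class of its leading hormone (Ins1 + Ins2, Gcg, Sst or Ppy) if that made up at least 10% of its UMIs and the runner-up less than 0.5 of it. Cells with no hormone at 10% and cells with 2 abundant hormones, which can include doublets, were left out. No doublet caller was run. Pooled, the left-out cells held 29788 CPM of Ghrl and summed stellate and immune markers of 1383 and 1181 CPM. The looser class put them with their leading hormone. Counts were summed per sample and class (at least 5 cells, 3 for replicating cells) and compared in R 4.3.3 by the quasi-likelihood method of edgeR 4.0.16, with TMM scaling after filterByExpr, adjusted over all genes tested, at 0.05; the standard error is the absolute log2 fold change over the square root of F. Class comparisons and the interaction had the sample as a block, and PPTx against control within a class had none. Members under the filter were compared by exact sign flips or exact permutation of CPM over samples. All tests were two-sided. Samples are separate pools of mice.

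All 10 members are given in each comparison, by name or within a range, and at most 6 called genes of each context list. The members and lists were chosen with earlier results of these data known. Alternatives were DESeq2 1.42.0, RLE scaling, no count filter, hormones left out, cells thinned to 2000 UMIs, stricter (20%, runner-up under 0.25) or looser classes, single samples left out, a replicate block, and 3 UMIs to call a replicating cell. Added after seeing the data were α against PP cells, PP cells alone, and β-cells without replication transcripts. Python 3.11.15, numpy 2.4.6 and pandas 2.3.3 were used. Promoters are those of RefSeq on GRCm38.p6.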

Additional observations from a re-analysis of the deposited data

How the results depend on the processing

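Of 848 values of named members under alternatives, 772 kept their direction and side of the threshold, 28 lost and 17 gained a call, and 31 changed sign, none of them called in either setting. The calls of Ero1lb, Pdia6 and P4hb between β- and other endocrine cells held in every alternative run, and so did that of Prdx4 where it could be tested (thinned cells, and leaving out PPTx replicate 2, left it under the filter). Members called between β- and other endocrine cells numbered 5, against 3 in thinned cells and 3 to 6 as single samples were left out (3 without PPTx replicate 2), between β- and α-cells 4, against 8 with no count filter, between PPTx and control β-cells 1, against 0 to 1 as single samples were left out, and in replicating β-cells 2, against 1 with DESeq2 (which gave Prdx4 no adjusted p), 1 in thinned cells, 1 with the stricter class and 1 to 2 as single samples were left out (1 without control replicate 3 or PPTx replicate 1, 2 or 3). The cause was not tested. Sign changes, on the log2 scale, were −0.094 for Pdia3 and −0.21 for Txndc5 (β over other, thinned), −0.018 for Txndc5 (β over PP, stricter class, and −0.040 to 0.23 as samples were left out), 0.32 for Pdia3 in replicating cells (thinned), −0.46 and −0.36 for Pdia5 there (no filter, and 3 UMIs to call a replicating cell, with −0.073 to 0.11 as samples were left out), −0.11 to 0.41 for Ero1lb after PPTx in other cells as samples were left out, −0.076 for Pdia6 after PPTx in PP cells alone, −0.035 to 0.20 for Ero1lb after PPTx in β-cells as samples were left out, and, for Txndc5 there, 0.0027 with DESeq2, 0.025 with no filter, 0.061 thinned, 0.0070 and 0.010 with the stricter and looser class, 0.0030 without replicating cells, and −0.11 to 0.11 as samples were left out. The 6 members whose interaction changed sign in some alternatives, given with that test, are not in these counts. Txndc11 (β minus other, CPM) went from −0.95 to 10.1 without hormones and 5.12 thinned, and from −5.83 to 6.13 as samples were left out, and Ero1l (β minus α, CPM) from 2.53 to −3.16 with the looser class and from −0.022 to 7.33 as samples were left out. Ero1l over PP cells lost its exact call when thinned, in the stricter and looser class and without control replicate 2 or 3 or any 1 of the 4 PPTx replicates. With no filter the median of all genes went from −0.11 to −0.70 in replicating β-cells, where Ero1lb relative to it was at −0.80 and Prdx4 at 1.52, from 0.01 to 0.41 for β- over α-cells, and by 0.38 for β- over PP cells and 0.14 for β- over other cells. RLE scaling moved it by 0.13 for β- over α-cells, where it called Pdia3 and Txndc5, then at 0.49 and 0.64 relative to it. Counts of all genes that moved by over 1.5 times were 1087 between β- and other cells (1829 with no filter, 417 thinned), 654 against α-cells (1398, 247), 659 against PP cells (1515, 198), 117 between α- and PP cells (46 thinned), 18 after PPTx in β-cells (68 with no filter, 10 thinned, 38 with the block, 5 to 21 as samples were left out), 13 in other cells (8 with no filter, 6 with the looser class, 7 with the block, 2 to 30 as samples were left out, 0 in PP cells), 8 for the interaction (1 with DESeq2, 4 with no filter, 3 thinned, 5 stricter, 3 to 11 as samples were left out, 0 in PP cells) and 138 in replicating cells (565 with no filter, 22 thinned). Controls and PPTx samples share replicate numbers, and same-numbered samples correlated by 0.03 to 0.15 in their deviations. Differently numbered ones lay between −0.12 and 0.060. Control replicates 1, 3 and 4 correlated best with their own number, and control replicate 2 with PPTx replicate 3 (0.060, against 0.034 for its own). Whether the numbers mark pairs or shared batches was not settled, and the main fit had no block. With the replicate block Pdia6 after PPTx was at 0.69 (edgeR adjusted p = 0.0138) and no member's call changed. The comparison of β- with δ-cells was not run, since no sample had 5 δ-cells. Ero1l, Pdia4, Pdia5 and Txndc11 had too few counts for the filter in several comparisons.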
